A study of Mus musculus with 21 samples.

Results

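The genes described here are 10 members of the pathway that loads peptides onto MHC class I molecules, namely Nlrc5, Psmb8, Psmb9, Psmb10, Tap1, Tap2, Tapbp, Tapbpl, Erap1 and H2-T23. They were taken by symbol from the 48474 rows of the deposited count table, and all 10 were among the 18248 genes that passed the filter on low counts. RNA came, according to the labels, from the neocortex of 21 mice (the study's text also names hippocampus for these groups), of which 11 were labelled wild-type (WT) and 10 rNLS8. rNLS8 mice carry NEFH-tTA, a driver expressed almost exclusively in neurons, together with tetO-hTDP-43ΔNLS, a human TDP-43 lacking its nuclear localization signal, while per the series description the controls are monogenic littermates, labelled WT. At 17 to 19 weeks of age, mice of both genotypes had an intracerebroventricular injection of 10 µL with 350 µg of an antisense oligonucleotide without a target, and all were fed a diet with 200 mg/kg doxycycline, which keeps the transgene off. The diet was changed to chow without doxycycline 2 weeks after the injection, and the mice were killed 3 weeks later. The experiment was run in cohort A (4 WT and 3 rNLS8 mice) and cohort B (7 WT and 7 rNLS8 mice), and the sex of the mice is not labelled. The question addressed is how the loading pathway differs between the genotypes after neuronal expression of cytoplasmic TDP-43.

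MHC class I molecules carry short peptides from inside the cell to its surface, where CD8+ T cells read them. Proteasomes cut proteins into peptides, the TAP transporter moves these into the endoplasmic reticulum, tapasin and chaperones hold empty class I molecules ready for them, and an aminopeptidase trims them to length. Interferons induce most of these genes, in part through NLRC5, and neurons and glia of the healthy brain express them at low levels.

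Of the members, 6 lie on chromosome 17, and Psmb9, Tap1, Psmb8 and Tap2 follow each other within 34.292 kb at chr17:34182030-34216321 of GRCm38.p6. The start sites of Psmb9 and Tap1 are 225 bases apart and point away from each other, so that a single stretch of DNA lies in front of both. RefSeq promoter windows for GRCm38.p6, from 250 bases before to 50 bases after a start site, were matched for 7 of the 10 members. The windows below are shown for Tap1 (shared with Psmb9), for Psmb8, H2-T23 and Erap1, which hold a match to an interferon-type motif, and for Psmb10, the member that was not called. Capitals mark a match to GAAANNGAAA, a core of the interferon-stimulated response element (ISRE), or to TTCNNNGAA, the core of the gamma-activated site (GAS), on either strand.
Tap1, chr17:34187306-34187605, plus strand: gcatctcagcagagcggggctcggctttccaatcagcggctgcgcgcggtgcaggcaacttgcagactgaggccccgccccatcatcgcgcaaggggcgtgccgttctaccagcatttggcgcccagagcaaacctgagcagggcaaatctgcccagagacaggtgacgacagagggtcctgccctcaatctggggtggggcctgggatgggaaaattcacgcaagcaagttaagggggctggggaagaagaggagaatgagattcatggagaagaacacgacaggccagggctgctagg
Psmb8, chr17:34197945-34198244, plus strand: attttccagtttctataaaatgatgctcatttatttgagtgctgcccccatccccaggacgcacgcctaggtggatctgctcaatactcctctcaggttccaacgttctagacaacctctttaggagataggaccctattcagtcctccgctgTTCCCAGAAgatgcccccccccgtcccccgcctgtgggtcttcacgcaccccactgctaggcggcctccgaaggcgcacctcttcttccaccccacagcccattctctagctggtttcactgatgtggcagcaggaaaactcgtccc
H2-T23, chr17:36032652-36032951, minus strand: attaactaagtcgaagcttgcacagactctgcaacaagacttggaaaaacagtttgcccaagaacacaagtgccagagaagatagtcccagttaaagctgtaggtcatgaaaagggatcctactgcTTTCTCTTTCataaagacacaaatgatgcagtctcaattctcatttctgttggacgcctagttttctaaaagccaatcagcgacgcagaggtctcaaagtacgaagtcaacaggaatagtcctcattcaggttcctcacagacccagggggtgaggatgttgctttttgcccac
Erap1, chr13:74639603-74639902, plus strand: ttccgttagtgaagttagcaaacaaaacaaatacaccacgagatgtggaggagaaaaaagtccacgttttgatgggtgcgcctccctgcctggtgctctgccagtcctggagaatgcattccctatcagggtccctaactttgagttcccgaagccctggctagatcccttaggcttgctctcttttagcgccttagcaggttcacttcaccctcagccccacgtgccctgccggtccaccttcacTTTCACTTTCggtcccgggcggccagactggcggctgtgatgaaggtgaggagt
Psmb10, chr8:105938343-105938642, minus strand: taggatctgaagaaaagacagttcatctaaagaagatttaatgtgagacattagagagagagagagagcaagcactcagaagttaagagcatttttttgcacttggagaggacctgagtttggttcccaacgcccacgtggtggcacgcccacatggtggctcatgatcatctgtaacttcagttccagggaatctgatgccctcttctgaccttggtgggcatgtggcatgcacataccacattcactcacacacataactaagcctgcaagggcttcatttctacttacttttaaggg

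The ISRE-like letters begin at position -124 from the start of H2-T23 and at position -4 from the start site used for the Erap1 window. They are found in 3.44% of the 32851 promoter windows of the table. The RefSeq gene Erap1 itself begins at base 74639573, before that window, so the window belongs to a start site inside the gene. The GAS-like letters begin at position -97 of Psmb8 and are found in 8.3% of all windows. None of the 7 windows holds GGGNNTTTCC, the letters searched for a κB site, which 1.63% of all windows hold. CCAAT, the letters of the box bound by the NF-Y factors that work with NLRC5, is in 37.4% of all windows and in those of Tapbp, Psmb9, Tap1 and H2-T23. The CCAAT at position -222 of Tap1 and that at position -8 of Psmb9 are the same bases read on opposite strands. Motifs that overlap each other were not found within these windows, and a match of letters describes the sequence only.

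The total count per library was 20700912 to 22263809. Tardbp, whose row can also take reads of the human transgene, was at 2253 to 2827 normalized counts in WT mice and at 2363 to 5053 in rNLS8 mice, and the lowest of the latter, the library labelled rNLS8 T61340, was within the WT range. Of 6 microglia markers, 4 were higher and 1 was lower in rNLS8 mice, and their summed level was 309 to 344 counts per 1e6 counts of the library (CPM) in WT and 338 to 476 CPM in rNLS8 mice, highest in mouse T60303 and lowest in mouse T_70267. Of 5 astrocyte markers, Gfap was higher and 4 were lower, and their sum was 1047 to 1314 CPM in WT and 1083 to 1694 CPM in rNLS8 mice, likewise highest in mouse T60303 and lowest in mouse T_70267 among the latter. Of 5 neuronal markers, 3 were lower, with a summed level of 5011 to 6113 CPM in WT and 3995 to 4954 CPM in rNLS8 mice. Of the T cell markers, Cd8a, the CD8 chain itself, had 5 counts in all WT and 18 in all rNLS8 mice together, Cd3e had 10 and 6, Cd3g 5 and 12 and Cd3d 3 and 6, and these genes did not pass the filter. Cd4, with 1860 counts in WT and 847 in rNLS8 mice, was lower in rNLS8 mice. Its counts were far above those of the Cd3 genes, and which cells hold it was not tested. The 4 border macrophage markers did not pass the test, and were at a summed 4.98 to 9.64 CPM in WT and 6.27 to 12.5 CPM in rNLS8 mice. Of 5 endothelial markers, 2 were lower, and none of 5 oligodendrocyte and 3 choroid plexus markers was called. The choroid plexus markers varied widely between libraries, at a summed 13.3 to 2060 CPM in WT and 23.7 to 1129 CPM in rNLS8 mice. The part of these cell types in the results was not tested. In bulk tissue, a change in the number of cells and a change in RNA per cell cannot be told apart.

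Of the 10 members, 9 were higher in rNLS8 mice and 1, Psmb10, was not called, by a quasi-likelihood fit in edgeR that included cohort, with p-values adjusted over all genes tested. Across all genes, 44.7% were called in either direction, 23% were called higher and 21.7% were called lower. Of 8154 genes called, 4190 were higher and 3964 lower, or 5826 higher and 2753 lower with scaling to the library total and no TMM, a scaling under which the same 9 members were called. The median log2 fold change of the 10 members was 0.73, against -0.00069 for all genes tested, whose median absolute value was 0.18. For 4 members (Nlrc5, Tap1, Psmb8 and Tapbp), each rNLS8 mouse lay above each WT mouse, which was the case for 3.85% of all genes.

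**Figure D1:**
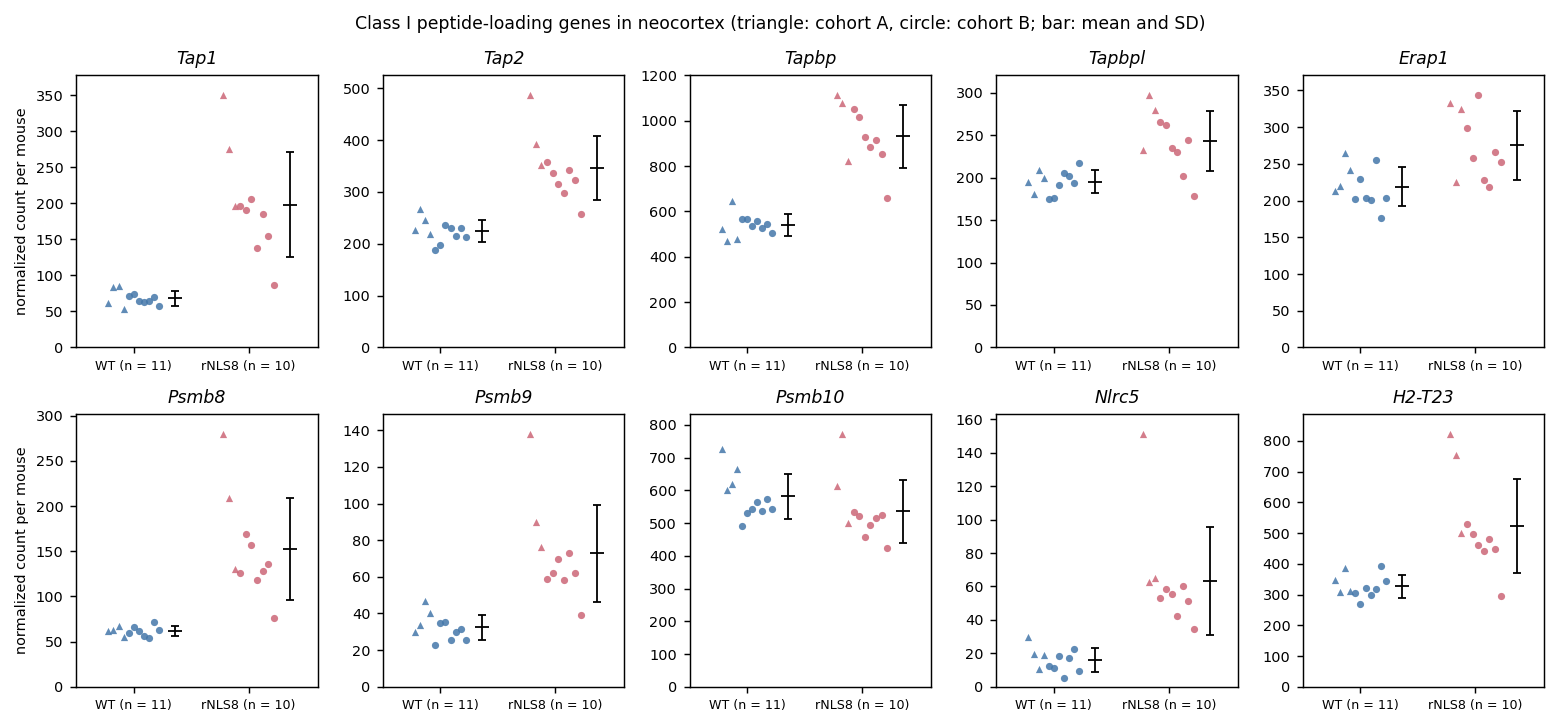
Normalized counts (vertical axes, from 0) of the 10 genes in each of 11 WT and 10 rNLS8 mice, with triangles for cohort A, circles for cohort B and a bar for mean and SD. The genotypes do not overlap for Tap1, Psmb8, Tapbp and Nlrc5, and overlap throughout for Psmb10.

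Nlrc5 encodes the transactivator that opens class I promoters, and had the largest fold change of the members. Its level was 5.16, 17.1 and 29.8 normalized counts (lowest, median and highest) in WT mice and 34.3, 56.9 and 151 in rNLS8 mice. All rNLS8 mice were thus above the highest WT mouse, although from only 5 to 28 counts per WT library, and mouse T60303 stood far above the other rNLS8 mice. The log2 fold change over WT, written log2FC here with its standard error after ±, was 2.01 ± 0.21 (edgeR, adjusted p = 3.96e-08), a fold of 4.03. Nlrc5 dropped out of the test when at least 10 counts were required in every mouse.

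The immunoproteasome subunits Psmb8, Psmb9 and Psmb10 take the places of the constitutive catalytic subunits Psmb5, Psmb6 and Psmb7 and shift cleavage towards peptides that fit class I molecules. Psmb8 was at 53.6, 62.2 and 71.5 normalized counts (lowest, median and highest) in WT and at 76.4, 133 and 280 in rNLS8 mice, with no overlap. This was a log2FC of 1.30 ± 0.14 (edgeR, adjusted p = 5.92e-08). Psmb9 was at 22.97, 31.4 and 46.9 in WT and at 39.2, 66.0 and 138 in rNLS8 mice, where only mouse T_70267 fell among the WT values. Its log2FC was 1.18 ± 0.13 (edgeR, adjusted p = 9.35e-08). Psmb10 did not follow these. It was at 490, 565 and 726 normalized counts in WT and at 424, 519 and 772 in rNLS8 mice, and 9 of 10 rNLS8 mice were within or below the WT range. Its log2FC was -0.10 ± 0.061 (edgeR, adjusted p = 0.194). Without the library labelled rNLS8 T61340, which had the highest Psmb10 level of all mice, Psmb10 was called lower (log2FC -0.15, edgeR adjusted p = 0.0216).

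The constitutive partners themselves were not called, with log2 fold changes of -0.11 for Psmb5 (adjusted p = 0.150), 0.11 for Psmb6 (adjusted p = 0.0719) and -0.031 for Psmb7 (adjusted p = 0.677 from edgeR), of which that of Psmb6 was called and that of Psmb7 changed sign with library size scaling. Leaving out the library labelled rNLS8 T61340 had Psmb5 (log2FC -0.15, edgeR adjusted p = 0.0243) and Psmb7 (log2FC -0.092, edgeR adjusted p = 0.0452) called lower, and Psmb6 was called higher without T_70267 (edgeR adjusted p = 0.0282) or without T61342. The subunit ratios count the first row of each symbol alone, so their absolute level depends on the suffix rows described below. Within each library, the log2 ratio of Psmb8 to Psmb5 counts was -3.95 ± 0.18 (SD, n = 11) in WT and -2.59 ± 0.42 (SD, n = 10) in rNLS8 mice. Their distance of 1.36 had an exact two-sided permutation p of 8.33e-06, the smallest that permutation within cohort can give, and an adjusted p of 1.25e-05 over 3 pairs, with 10 of 10 rNLS8 mice above each WT mouse. The ratio of Psmb9 to Psmb6 rose from -5.38 ± 0.29 (SD, n = 11) to -4.37 ± 0.47 (SD, n = 10), a difference of 1.01 (adjusted exact permutation p = 1.25e-05), and 9 of 10 rNLS8 mice exceeded each WT mouse. The ratio of Psmb10 to Psmb7 was -1.997 ± 0.12 (SD, n = 11) and -2.08 ± 0.14 (SD, n = 10), and the difference of -0.080 was not past the threshold (exact permutation test, adjusted p = 0.156). In cohorts A and B, the differences were 1.78 and 1.16 for Psmb8, 1.30 and 0.91 for Psmb9 and -0.095 and -0.057 for Psmb10. The first 2 ratios were past the threshold in each cohort (exact permutation test, adjusted p = 0.0429 in A and 0.000874 in B for both), and the third in neither (adjusted p = 0.371 and 0.334). For the first 2 ratios, the unadjusted p in each cohort was the smallest that permutation can give there.

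**Figure D2:**
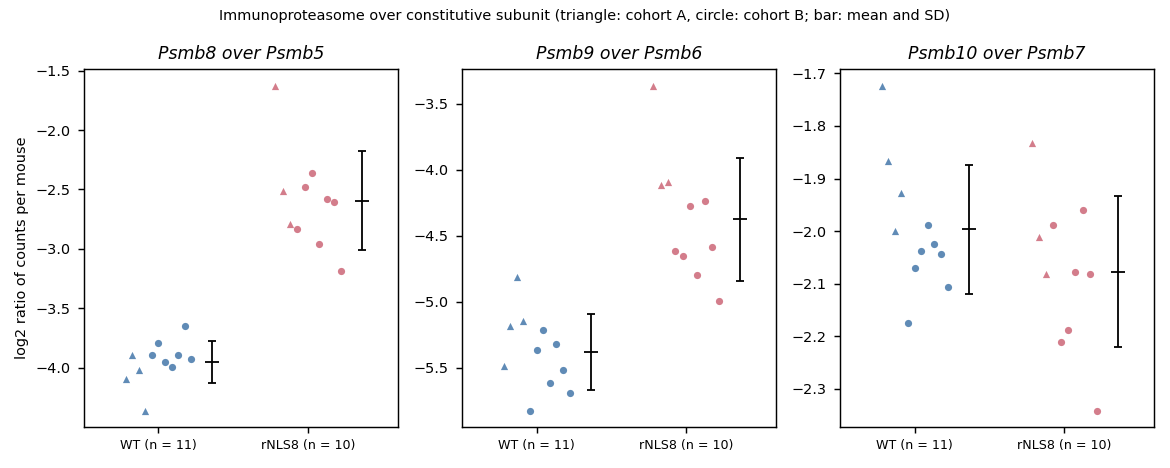
Log2 ratio of the counts of each immunoproteasome subunit to its constitutive counterpart (vertical axes) in each mouse, with triangles for cohort A, circles for cohort B and a bar for mean and SD. The 10 rNLS8 mice lie above all WT mice for Psmb8 over Psmb5, 9 of 10 do for Psmb9 over Psmb6, and none does for Psmb10 over Psmb7.

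Tap1 and Tap2 together form the transporter that moves peptides into the endoplasmic reticulum. Tap1 was at 53.7, 64.3 and 85.5 normalized counts (lowest, median and highest) in WT and at 86.2, 193 and 351 in rNLS8 mice. The ranges did not overlap, but the lowest rNLS8 mouse, T_70267, was close to the highest WT mouse. The log2FC of Tap1 was 1.53 ± 0.15 (edgeR, adjusted p = 7.62e-09). Tap2 was at 189, 228 and 267 in WT and at 258, 339 and 488 in rNLS8 mice, and mouse T_70267 alone was within the WT range. Its log2FC of 0.63 ± 0.069 (edgeR, adjusted p = 6.60e-08) was smaller than that of its partner, a difference in size that was not tested.

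Tapbp encodes tapasin, which bridges TAP and the empty class I molecule, and Tapbpl encodes its relative TAPBPR, which edits peptides outside that complex. Tapbp was at 470, 537 and 647 normalized counts (lowest, median and highest) in WT and at 657, 922 and 1114 in rNLS8 mice, and the ranges did not overlap. The log2FC was 0.79 ± 0.075 (edgeR, adjusted p = 6.56e-09). Tapbpl was at 174, 195 and 217 in WT and at 178, 240 and 298 in rNLS8 mice, of which 8 of 10 were above the WT range. With a log2FC of 0.32 ± 0.072 (edgeR, adjusted p = 0.000756), Tapbpl had the smallest fold change of the 9 members called. That of Erap1 was close, at 0.34, and was the smaller of the pair in cohort A alone (0.35 against 0.49).

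Erap1, the aminopeptidase that trims peptides in the endoplasmic reticulum, was at 176, 214 and 265 normalized counts (lowest, median and highest) in WT and at 219, 262 and 344 in rNLS8 mice. Only 5 of 10 rNLS8 mice were above the WT range. The log2FC was 0.34 ± 0.085 (edgeR, adjusted p = 0.00207). H2-T23 encodes Qa-1, the nonclassical heavy chain that presents leader peptides of other class I molecules to the NKG2 receptors of natural killer and CD8+ T cells. It was at 269, 318 and 393 in WT and at 297, 489 and 822 in rNLS8 mice, and 9 of 10 rNLS8 mice were above the WT range, the exception being mouse T_70267. Its log2FC was 0.67 ± 0.11 (edgeR, adjusted p = 1.37e-05).

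Compared per kilobase of annotated exon (GENCODE models on GRCm38), the mean level in WT mice ranged from 15.5 CPM per kb for Psmb10 and 6.77 for Tapbp over 5.17 for H2-T23, 3.78 for Tapbpl, 2.71 for Tap2 and 1.37 for Erap1 to 0.832 for Psmb8, 0.567 for Tap1, 0.403 for Psmb9 and 0.0855 for Nlrc5. These levels count the first row of each symbol alone. With the suffix rows described below added, Tapbp would lie above Psmb10, and Psmb8 and Tap1 above Erap1, so the order of levels depends on which rows are counted.

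The test was repeated in each cohort. In cohort A alone, 8 of 10 members were higher, where 6.99% of all genes were, and in cohort B alone 9 of 10 were, where 19.3% of all genes were. The member lost in cohort A was Erap1, with a log2 fold change of 0.35 there (adjusted p = 0.175 from edgeR) and of 0.34 in cohort B. For H2-T23, the values were 1.06 in cohort A and 0.48 in cohort B. For Psmb8 they were 1.77 and 1.06, and for Tap1 1.97 and 1.31. In the fit with an interaction of genotype and cohort, the log2 fold change was higher in cohort A for 9 of 10 members, and for Erap1 it was 0.020 higher in cohort B. The interaction of genotype and cohort passed the threshold for 0 of 10 members in edgeR and in DESeq2, and for 0.0% of all genes in edgeR. At an unadjusted p under 0.05, 3 members passed in edgeR, namely H2-T23 (p = 0.0119), Psmb8 (p = 0.0197) and Tap1 (p = 0.0361), and 3 in DESeq2, while 5.64% of all genes did so in edgeR.

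**Figure D3:**
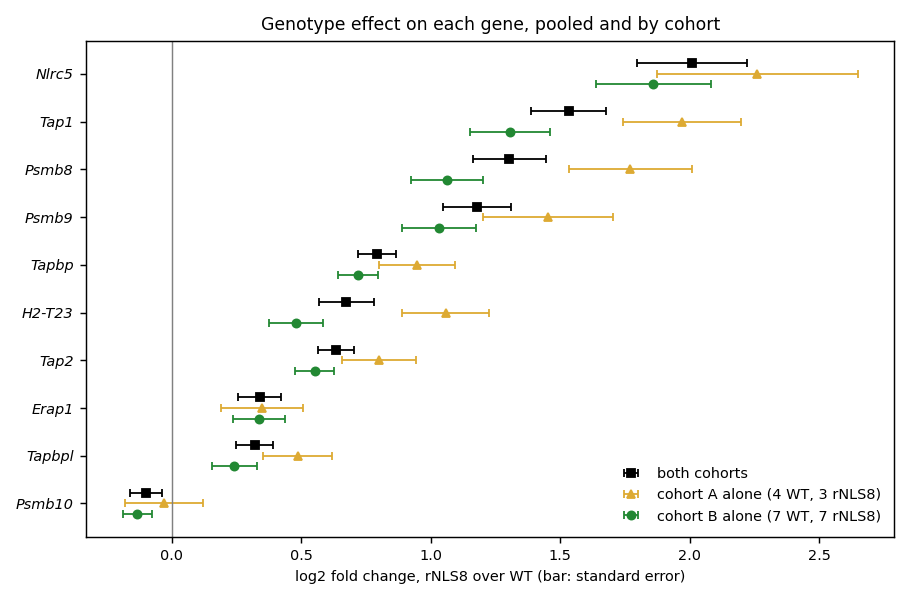
Log2 fold change of rNLS8 over WT mice (horizontal axis) with its standard error for each gene, from both cohorts (black squares), cohort A alone (yellow triangles) and cohort B alone (green circles). Nlrc5 is highest at 2.01 and Psmb10 lowest at -0.10 over both cohorts, and H2-T23, Psmb8 and Tap1 show wide gaps between the cohorts.

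Mouse T60303 of cohort A was the highest rNLS8 mouse for 7 of these 9 genes, and on average 1.57 above the WT mean on the log2 scale. Mouse T_70267 of cohort B was the lowest for 8 of 9, was above all WT mice for only 4, and was on average 0.28 above the WT mean. Of all mice it also had the lowest sum of endothelial markers (145 CPM) and the highest sum of oligodendrocyte markers (6237 CPM). The library labelled rNLS8 T61340, whose Tardbp level was within the WT range, was above all WT mice for 8 of 9 and on average 1.20 above the WT mean. The order of mice was not the same for each member, since T60303 was at 232 normalized counts of Tapbpl, below the median of rNLS8 mice, and the library labelled rNLS8 T61340 was at 225 for Erap1, among the lowest. Microglia markers summed to 476 CPM in mouse T60303, to 338 in mouse T_70267 and to 412 in the library labelled rNLS8 T61340. They summed to 401 CPM in mouse T_70252, whose members were on average 0.67 above the WT mean, and to 371 CPM in mouse T61342, where that average was 0.98. In the remaining rNLS8 mice, all of cohort B, they summed to 366 to 387 CPM, with averages of 0.80 to 0.94. A relation between these sums and the members was not tested. Leaving out any 1 of the 21 mice kept the same 9 members called, and only leaving out the library labelled rNLS8 T61340 added Psmb10.

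**Figure D4:**
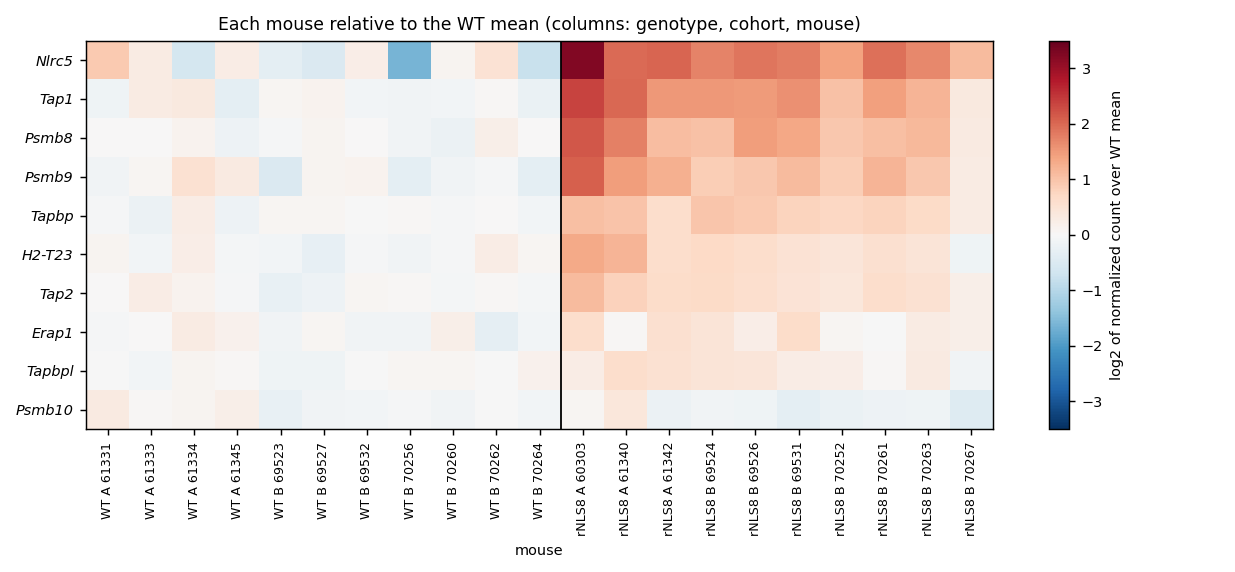
Log2 of the normalized count of each gene (rows) over its WT mean, for each mouse (columns, by genotype, cohort and mouse number), from blue (lower) to red (higher). Mouse T60303 is the darkest rNLS8 column and mouse T_70267 the palest, and the row of Psmb10 lacks the shift of the other rows.

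Because NLRC5 drives class I genes, the level of Nlrc5 was compared with that of each other member within a genotype. Across the 10 rNLS8 mice, 5 of 9 members were past the threshold in permutation tests of Pearson's r adjusted over 18 relations. These were Psmb9 (r = 0.95, adjusted p = 0.00135), Tap2 (r = 0.94, adjusted p = 0.00135), Tap1 (r = 0.88, adjusted p = 0.0106), Psmb8 (r = 0.87, adjusted p = 0.0106) and H2-T23 (r = 0.84, adjusted p = 0.0136). With Spearman's rho, Psmb9 (rho = 0.93, adjusted permutation p = 0.00612), H2-T23 (rho = 0.84), Tap1 and Tap2 (both rho = 0.83, adjusted permutation p = 0.0220 for these 3 genes) were past the threshold, and Psmb8 (rho = 0.73, adjusted permutation p = 0.0741) was not. With values centred on cohort, 4 of 9 were past the threshold, and H2-T23 was not (r = 0.70, adjusted permutation p = 0.0843). Without T60303 and T_70267, the farthest from the median of Nlrc5, none of the 9 was past the threshold among the 8 mice left, where r was 0.75 for Psmb9 and Tap2, 0.76 for Tap1, 0.50 for Psmb8 and 0.52 for H2-T23. Within cohort B alone, r was 0.90 for Psmb9 and Tap2, 0.94 for Tap1 and 0.87 for Psmb8 and H2-T23, but 0 of 9 passed the adjusted exact permutation test on 7 mice (lowest adjusted p = 0.0524). Cohort A holds only 3 rNLS8 mice, too few for a value. Across the 11 WT mice, 0 of 9 members were past the threshold, with r between -0.42 and 0.48 at the low counts of Nlrc5 in these mice.

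The other genes of the class I pathway were followed by role in a list of 47, of which 43 were tested. Of these, 21 were higher, 8 were lower and 14 were not called, with a median log2 fold change of 0.15, where 23% of all genes were higher and 21.7% lower, and with library size scaling 27 were higher and 3 lower. The classical heavy chains and the light chain, which receive the peptides, were higher in 3 of 3 cases, with log2 fold changes of 1.32 for H2-K1, 1.50 for H2-D1 and 1.39 for B2m. Of 11 nonclassical and class I-like heavy chains tested, 8 were higher and none lower. In edgeR, H2-Q6 rose by a log2FC of 1.97 ± 0.25 (adjusted p = 6.82e-07), H2-Q4 by 1.67 ± 0.15 (adjusted p = 1.91e-09) and H2-T24 by 1.02 ± 0.12 (adjusted p = 3.29e-07). H2-M3, which presents formylated peptides, and H2-T22, a ligand of γδ T cells, had 0.70 and 0.62. H2-Q7 and H2-T10, with fewer counts, were also higher, with 1.97 and 0.67. H2-T10 was not called in cohort A alone (edgeR adjusted p = 0.180). H2-M5, also among the 8 (log2FC 0.57, edgeR adjusted p = 0.0307), was called in neither cohort alone (edgeR adjusted p = 0.413 in A and 0.0530 in B). In cohorts A and B, the values were 1.90 and 1.31 for H2-D1, 2.76 and 1.53 for H2-Q6 and 1.21 and 0.45 for H2-M3, and the interaction with cohort had an unadjusted p of 0.0207 for H2-D1 and of 0.0198 for each of the others in edgeR and was not past the threshold after adjustment. H2 genes resemble each other closely, so that reads may be shared between them.

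The counts for chaperones, proteasome activators and peptidases stand beside 23% of all genes higher and 21.7% lower, and lower calls in the pathway list depended on scaling as given above. Calr and Canx, the lectin chaperones calreticulin and calnexin, were not called (log2FC 0.035 and 0.040), and Pdia3, the thiol oxidoreductase paired with tapasin, was lower (log2FC -0.19, edgeR adjusted p = 0.00499), though not in cohort A alone (log2FC -0.20, edgeR adjusted p = 0.322). Among 5 proteasome activator and assembly genes, Psme2, a subunit of the interferon-inducible PA28 cap, rose by 0.42 on the log2 scale (adjusted p = 1.62e-05 from edgeR), Psme1, its partner, was not called (0.10, adjusted p = 0.193), 1 other was higher and 1 was lower. Of 6 cytosolic peptidases, which destroy or trim peptides before transport, 1 was higher and 4 were lower. None of these 5 was called in cohort A alone, whose fewer mice give the test less power. Of the 8 lower calls in the whole pathway list, 1, that of Nfyb, was also made there.

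Of 12 transcriptional regulators, 7 were higher and 2 lower, beside the 23% and 21.7% of all genes. Irf9 and Stat2, which act downstream of type I interferon receptors, had log2 fold changes of 1.84 and 0.65, and Irf1 had 0.35 (adjusted p = 0.00403 from edgeR), which was not called in cohort A alone (adjusted p = 0.138). Stat2 had 1.06 in cohort A and 0.44 in cohort B (edgeR interaction, unadjusted p = 0.00629, not past the threshold after adjustment). Rfx5, a subunit of the RFX complex on which NLRC5 acts, was at 314, 371 and 403 in WT and at 488, 515 and 579 in rNLS8 mice, with no overlap, and had a log2FC of 0.53 ± 0.049 (edgeR, adjusted p = 4.05e-09). Nfyb, a subunit of the CCAAT-binding NF-Y complex, went the other way, from 749 to 945 in WT to 467 to 647 in rNLS8 mice (log2FC -0.59 ± 0.048, edgeR adjusted p = 5.77e-10). Ciita, the class II counterpart of Nlrc5, was not called (log2FC 0.0026, edgeR adjusted p = 0.992).

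**Figure D5:**
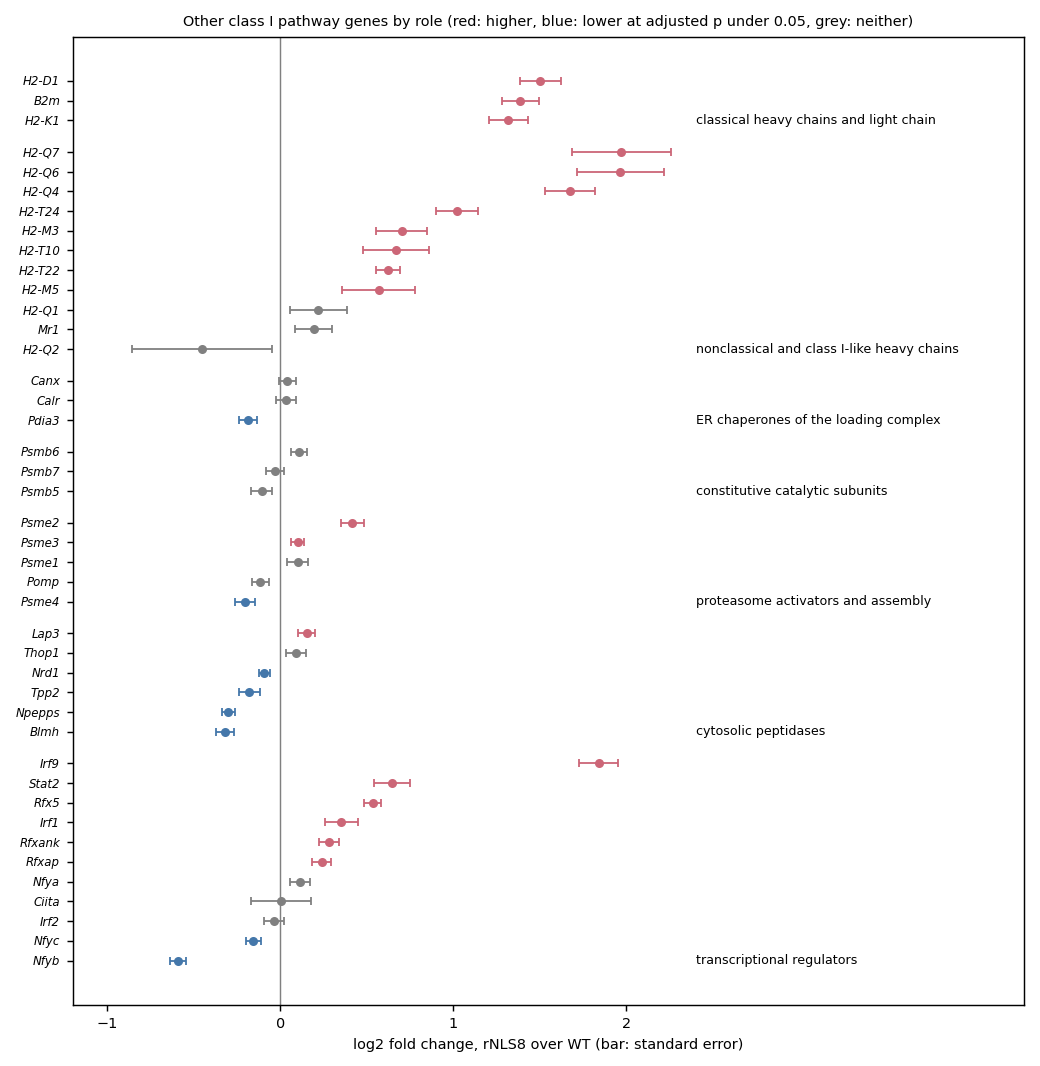
Log2 fold change of rNLS8 over WT mice (horizontal axis) with its standard error for other class I pathway genes tested, grouped by role, in red if higher, blue if lower and grey if not called. H2-Q6 and H2-Q7 at 1.97 and Irf9 at 1.84 lie far to the right, while H2-Q2, at -0.45, was not called, and Nfyb at -0.59 and 4 of 6 peptidases lie to the left.

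The genes most like the members called, by Pearson's r over 21 mice after centring on genotype and cohort and among 14564 genes with a mean of at least 50 counts, included H2-K1 (r = 0.91), H2-D1, Gbp2 and Irgm1 (r = 0.90 each) and H2-Q4 (r = 0.89). Without mouse T60303, r was between 0.86 and 0.89 for these genes. These values describe mice that share tissue and library processing, and were not tested.

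For 6 members the table holds further rows under the same symbol with a suffix, called copy rows here, although not all of them repeat the first row. The row Tap1-2 held the same count as Tap1 in 7 of 21 mice and differed by at most 9 counts in the others, and Psmb8-2 and Psmb9-2 equalled their first rows in 12 of 21 mice each. Rows with the suffixes -3 and -4 equalled the first row in none of the mice and held fewer counts, such as 1243 over all mice for Tap1-3 against 2777 for Tap1 and 856 for Tap2-3 against 5980 for Tap2, and H2-T23-2 held 15 against 8904 for H2-T23. Of 15 copy rows of members that were tested, 13 were higher in rNLS8 mice, while Tap2-3 and Tap2-4 were not called (adjusted p = 0.294 and 0.338 from edgeR). Psmb6, H2-K1 and H2-D1 also had copy rows, such as Psmb6-2 with 30038 counts against 29368 for Psmb6. The levels of these genes and of the subunit ratios are therefore uncertain, but the same 9 members were called with copy rows summed or left out. Exons of 7 members overlap those of other genes in GENCODE, and since the use of strand in counting is not given in the sources used here, such reads cannot be told apart. In GENCODE, which holds a longer Psmb9 transcript than the RefSeq model given above, Tap1 and Psmb9 overlap each other on opposite strands. Erap1 overlaps Cast, which was itself higher (log2FC 0.47, edgeR adjusted p = 1.34e-06), and Tapbp overlaps Zbtb22, which was lower (log2FC -0.27, edgeR adjusted p = 0.000961).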

How the data were processed

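The authors aligned paired-end reads of poly(A) libraries to the mouse genome (mm10, with HISAT2, Bowtie2 and RSEM named in the submitters' processing notes, versions not given) and deposited whole-number read counts per gene symbol for 21 mice, without normalization. No column was left out. Groups, cohorts and mouse numbers were taken from the sample labels.

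The genotypes were compared with edgeR 4.0.16 in R 4.3.3 (filterByExpr with a minimum count of 10 and a minimum total of 15, TMM normalization, quasi-likelihood test with genotype and cohort, Benjamini-Hochberg adjustment over 18248 genes, threshold 0.05). A normalized count is the count over the TMM-scaled library total, times the mean of that total over all mice. The standard error of a log2 fold change is its size over the square root of F. Ratios of subunits used a pseudocount of 0.5 and all 120120 permutations of genotype within cohort. Correlations used log2 CPM with a prior count of 2 and 100000 permutations. All tests were two-sided. Alternatives were DESeq2 1.42.0, edgeR without cohort, other normalizations and filters, each cohort alone, copy rows summed, Xist as covariate and each mouse left out. Leaving out copy rows was added after the data were seen.

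On simulated counts for 18248 genes, the edgeR genotype test called 97 of 100 genes changed by 1 on the log2 scale, 74 of 100 changed by 0.5 and 10 others, and the interaction test called 64 and 23 of 100 and 4 others. In cohort A alone, the genotype test called 71 and 21 of 100 and 3 others, so a gene not called there may still differ. The simulation changed only these genes and held no cohort effect, whereas 44.7% of genes were called in the mice. Recovery in the mice may therefore differ.

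All members are named. Of the other pathway genes, H2-K1, H2-D1, B2m, Psmb5, Psmb6 and Psmb7 were named always, then the 12 others that changed most among those called at a mean of 50 counts or more, and then the 6 genes most like the members. A gene named by this rule is not reported here. Cast, Zbtb22, Calr, Canx, Pdia3, Psme1, Ciita, H2-Q2, H2-Q7, H2-T10, H2-M5 and the cell type markers given by name were picked after their values were seen. The members and lists were chosen with earlier results of these data known. Positions and promoters are from RefSeq for GRCm38.p6 and exon lengths and overlaps from GENCODE.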

Additional observations from a re-analysis of the deposited data

Results flagged for a closer look

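Dixon's ratio, the gap of an extreme mouse to its neighbour over the range of all, was computed for 31 sets of 10 rNLS8 values and passed its critical value in 7, where chance gives about 1 in 20. Mouse T60303 was the highest for Nlrc5 (ratio 0.735, at 151 normalized counts against 65.3 in the next mouse), Psmb9 (ratio 0.488, at 138 against 89.8), H2-T24 (ratio 0.605, at 202 against 137), Stat2 (ratio 0.558, at 1055 against 737) and the log2 ratio of Psmb8 to Psmb5 (ratio 0.472, at -1.63 against -2.36). The library labelled rNLS8 T61340 was the highest for Psmb5 (ratio 0.494, at 1195 normalized counts against 950) and Psmb7 (ratio 0.633, at 3112 against 2414), which are constitutive proteasome subunits. Without mouse T60303, the log2 fold change of Nlrc5 was 1.81 and that of Psmb9 1.07, and both remained called in edgeR.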

How the results depend on the processing

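The same 9 members were called under each alternative, except that Nlrc5 was not tested with at least 10 counts in every mouse, that Erap1 (0.35, adjusted p = 0.175 from edgeR) was lost in cohort A alone, and that Psmb10 (-0.15, adjusted p = 0.0216 from edgeR) was gained without the library labelled rNLS8 T61340. Cohort A alone, with 7 mice, gave 2195 genes in place of 8154 and 15 other pathway genes (14 higher and 1 lower) in place of 29 (21 higher and 8 lower), and Irf1, H2-T10 and Pdia3 were among those not called there. Relations with Nlrc5 numbered 0 in cohort B alone and 0 without mice T60303 and T_70267, in place of 5, and 4 with values centred on cohort. The log2 fold change of Psmb7 turned to 0.044 with library size scaling and to 0.068 in cohort A alone. Over 28 named genes and 33 alternatives, 913 of 923 values kept direction and side of the threshold. With 1 mouse left out, 7805 to 8362 genes were called. No paired analysis was possible because mouse numbers are not shared between genotypes. Depth limits the low genes, such as Nlrc5 with 5 to 28 counts per WT library, where 3 counts correspond to 0.135 to 0.145 CPM.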
